A study of Mus musculus with 17 samples.

Results

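The mRNAs of 10 mouse enzymes that make and recycle glutathione or remove reactive oxygen were read across 6 stem and progenitor populations of the bone marrow. The members were Gclm, Gclc, Gss, Gsr, Txnrd1, Prdx2, Cat, Sod1, Sod2 and Hmox1, out of 28090 gene names on the array. They were found as every non-control probe carrying 1 of these gene names, which gave 16 of 41174 probes. The group was chosen from an earlier reading of these arrays, in which Gclm was lower in the stem cell populations than in the myeloid populations. That contrast is therefore given below as a description without a test, and the tests were kept to differences between populations of the same sort.

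The populations were long-term and short-term hematopoietic stem cells (LT-HSC and ST-HSC), multipotent progenitors (MPP), common myeloid progenitors (CMP), granulocyte-monocyte progenitors (GMP) and megakaryocyte-erythroid progenitors (MEP). All came from untreated female C57Bl/6 mice aged 6 to 8 weeks, and by the methods each replicate was a pool of mice, so that the spread between arrays is one between pools. Marrow was depleted of lineage-positive cells and enriched for c-kit, and LT-HSC, ST-HSC and MPP (the HSC subsets) were taken in one sort and CMP, GMP and MEP (the myeloid populations) in another. LT-HSC had 2 arrays, of which one is labelled a pool of replicates 2 and 3 and was counted as 1 array, and the other populations had 3 each. Every population is a gate on surface proteins, and fewer cells of a kind cannot be told apart from less RNA per cell in such bulk samples. Values are log2 intensities of single-color arrays after quantile normalization over the 17 arrays.

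The scanner software called 41.4% to 70.1% of an array's spots above background, controls left out. The lowest share was that of the unnumbered LT-HSC array, whose 75th percentile of intensity was 53.1 against at least 243.3 on the others, and differences from LT-HSC are also given without it where that changes a call, a direction or the size by much. The arrays were scanned in 3 runs, 1 with 6 myeloid arrays, 1 with 6 arrays of HSC subsets and 1 with an unnumbered array of every population but LT-HSC. That run took 2 scan days with a slide each, one for MPP, CMP and GMP and the other for ST-HSC and MEP, so its differences between these sets also cross slide and day. Where the values of single arrays are listed, the numbered arrays come first and the unnumbered one last, which for LT-HSC is the dim array. The mean of 5 HSC markers was 9.58 to 10.92 on the arrays of HSC subsets and 4.78 to 8.01 on the myeloid arrays. Procr, Hlf and Robo4 followed this order. Ly6a and Slamf1 did not in every population. Ly6a was at 9.71 in GMP and 8.88 in ST-HSC. Slamf1 was at 5.72 in CMP and 1.97 in MPP, where no array was above background. The list of 6 GMP markers had its highest array means in GMP (14.93 to 15.24) and the list of 5 MEP markers in MEP (13.54 to 13.66).

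Glutathione is a small thiol that cells hold in large amounts as a reducing agent. Glutamate-cysteine ligase, made of the catalytic subunit Gclc and the modifier subunit Gclm, joins glutamate to cysteine, and glutathione synthetase (Gss) adds glycine. Glutathione reductase (Gsr) and the cytosolic thioredoxin reductase (Txnrd1) use NADPH to return oxidized glutathione and thioredoxin to their reduced forms. Superoxide dismutases turn superoxide into hydrogen peroxide, Sod1 in the cytosol and Sod2 in mitochondria, and catalase (Cat) and peroxiredoxin 2 (Prdx2), an abundant red cell protein, remove the peroxide. Heme oxygenase 1 (Hmox1) opens the heme ring and is well known in macrophages that take up red cells. Several of these genes are known targets of the factor Nrf2, which binds the antioxidant response element. Stem cells of the marrow are known to be sensitive to reactive oxygen, and neutrophil and red cell precursors each use this chemistry heavily.

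The probes that carried the values below were 60 bases long, and 3 of them spanned more than 60 bases of the genome in the array's mm9 annotation and so cross an exon junction. They are shown because they read spliced mRNA of Gclm, Gss and Prdx2, whose values in MEP are described below. The Gclm probe A_51_P320089 lies at chr3:121962174-121964809, the Gss probe A_52_P358860 at chr2:155389432-155390531 and the Prdx2 probe A_52_P550034 at chr8:87494188-87494338. They are written in lower case throughout, since no part of them is singled out.
Gclm: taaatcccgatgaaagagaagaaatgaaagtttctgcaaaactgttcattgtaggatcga
Gss: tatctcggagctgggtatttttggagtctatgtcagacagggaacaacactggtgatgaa
Prdx2: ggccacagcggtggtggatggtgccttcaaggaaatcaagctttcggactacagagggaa

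The 10 members did not share 1 pattern. By their brightest probes, Gclm, Gclc, Gss, Prdx2, Sod1 and Sod2 had their highest mean in MEP, Gsr in GMP, Cat and Txnrd1 in MPP, and Hmox1 in ST-HSC. The 6 population means spanned 4.37 on the log2 scale for Gclm without the dim LT-HSC array, on which it had no signal above background. With both LT-HSC arrays they spanned 2.58 for Hmox1, 2.33 for both Gsr and Gss, 2.13 for Prdx2, 1.67 for Gclc and 1.47 for Txnrd1. They spanned 0.84 for Sod1, 0.75 for Sod2 and 0.74 for Cat. All 16 probes were well above background on 16 or 17 arrays, and the array without signal was in each case the dim LT-HSC array, for Gclm and for 1 of 3 Sod1 probes.

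**Figure D1:**
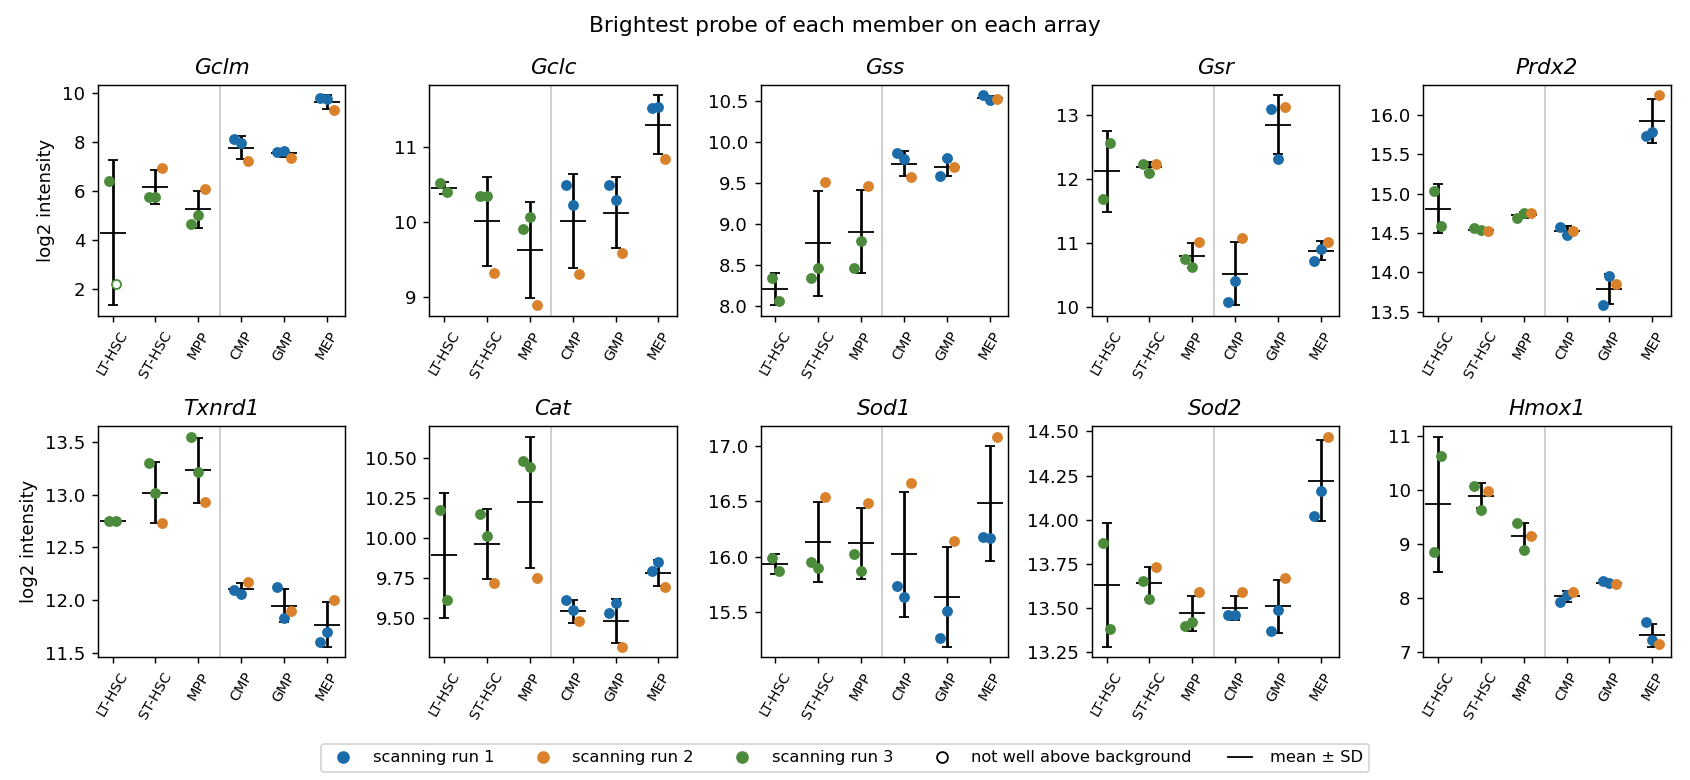
Log2 intensity of the brightest probe of each member on each of 17 arrays, with populations on the x axis, points coloured by scanning run, an open point where the probe was not well above background, and bars for mean ± SD. The y axes differ between panels. Gclm, Gss, Prdx2 and Sod2 sit highest in MEP with no overlap with CMP, Gsr sits highest in GMP, and Hmox1 lies at 8.85 to 10.62 in the HSC subsets and 7.15 to 7.55 in MEP.

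Differences between populations of 1 sort were tested in limma, with 1 mean per population over all 17 arrays and Benjamini-Hochberg adjustment over all 41174 probes. Of the 16 member probes, 0 were called between ST-HSC and LT-HSC in limma (adjusted p under 0.05), where 0.852% of all probes were higher in ST-HSC and 2.49% lower, and the unadjusted p of 0 member probes was under 0.05. Only limma was run for these counts. In MPP against ST-HSC, 3 member probes were lower and 0 higher, against 0.874% and 1.15% of all probes, and in MPP against LT-HSC 3 were lower and 0 higher, against 4.32% and 2.93%. All 3 in each case were the probes of Gsr. In GMP against CMP, 3 were higher and 3 lower, against 1.84% and 2.93% of all probes. In MEP against CMP, 5 were higher and 0 lower, against 7.24% and 9.43%. In GMP against MEP, 3 were higher and 4 lower, against 9.56% and 7.81%. These 3 myeloid comparisons share their arrays, so that the last is the difference of the first pair. Since 3 genes have 3 probes each, the counts are not counts of independent genes, and by brightest probe they were 1 higher and 1 lower in GMP against CMP (2.06% and 3.43% of the brightest probes of all gene names), 3 higher and 0 lower in MEP against CMP (7.45% and 10.4%), and 1 higher and 2 lower in GMP against MEP (10.3% and 8.26%).

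Myeloid arrays with the same replicate number deviated together, as did those of MPP and ST-HSC, with the unnumbered arrays of a sort taken as 1 number. Among the numbered myeloid arrays the contrast was small, at 0.13 to 0.34 for the same number and 0.09 to 0.17 for different numbers. The numbered myeloid arrays of a number shared a slide, while the unnumbered MEP array lay on another slide than those of CMP and GMP. With the replicate number as a block, 8 member probes were higher and 1 lower in MEP than in CMP, where the block also raised the share of all probes to 18.8% higher and 14.4% lower. In GMP against MEP, 4 were then higher and 10 lower, against 14.2% and 16.5% of all probes, and in GMP against CMP 3 were higher and 4 lower, against 4.92% and 6.45%. In MPP against ST-HSC 5 were lower and 0 higher, against 2.32% and 3.05%. For these 4 comparisons, values with the block are given below where they change a call of a member. The deviations of the unnumbered LT-HSC array correlated at only -0.06 and 0.11 with those of the unnumbered ST-HSC and MPP arrays, and the block there compares that dim array alone, so that its calls against LT-HSC (7 member probes in ST-HSC and 10 in MPP) are given as counts.

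**Figure D2:**
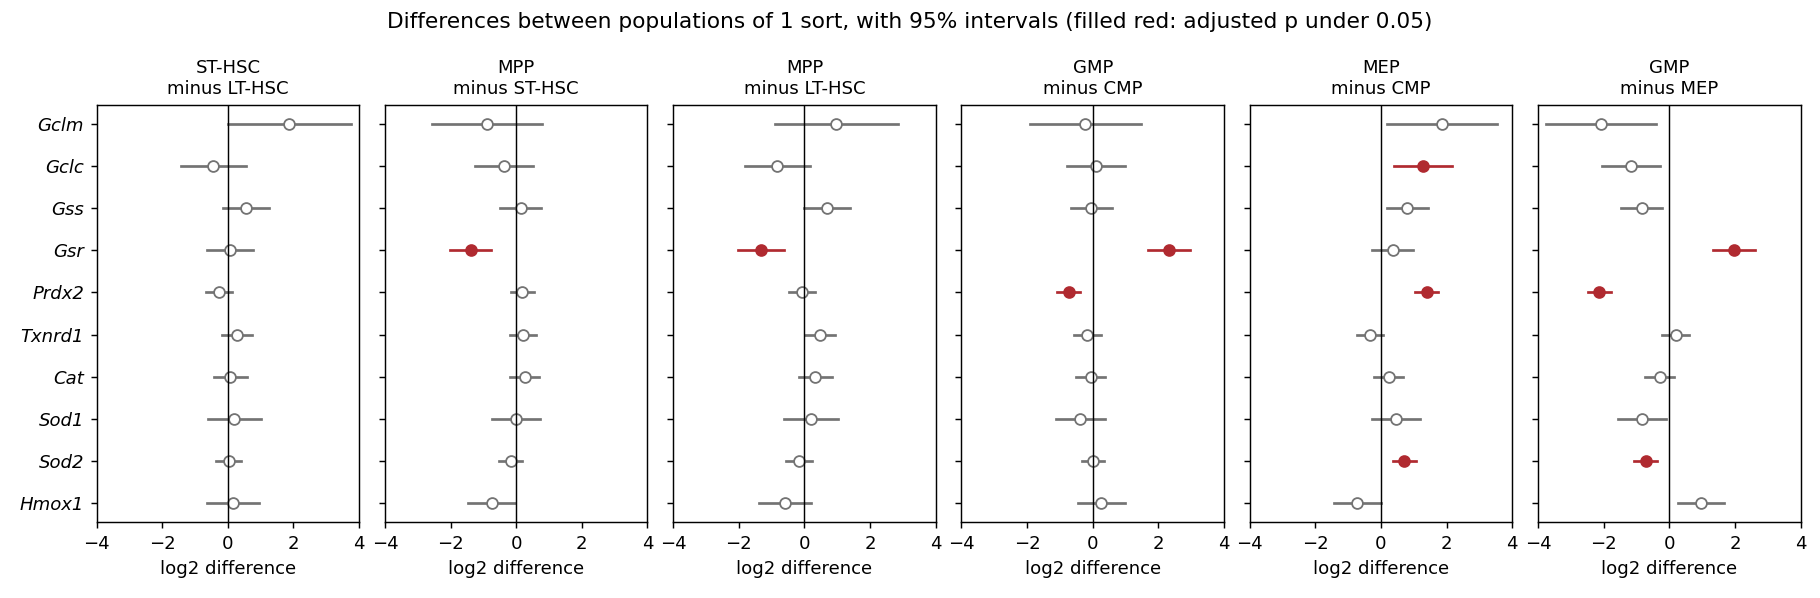
Log2 difference of the brightest probe of each member in 6 comparisons within a sort (x axis), with 95% intervals from limma, filled red where the adjusted p was under 0.05 without the block. Only Gsr is called among the HSC subsets, and Gsr and Prdx2 lie on opposite sides of 0 in both comparisons of GMP.

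Glutathione reductase gave the largest difference of any member between GMP and CMP. The brightest Gsr probe, A_51_P359625 at chr8:34808399-34808458, read 13.10, 12.31 and 13.13 on the GMP arrays, 10.08, 10.41 and 11.07 on the CMP arrays and 10.72, 10.90 and 11.02 on the MEP arrays. Every GMP array was above every CMP and MEP array. Gsr was 5.02-fold higher in GMP than in CMP (log2 difference 2.33 ± 0.29 SE, limma adjusted p = 0.00043) and 3.91-fold higher in GMP than in MEP (1.97 ± 0.29 SE, adjusted p = 0.000254). The difference from CMP was 2.46 within the run of numbered arrays and 2.06 within the run of unnumbered arrays. MEP and CMP differed by 0.36 with a 95% interval of -0.27 to 0.99 (adjusted p = 0.502).

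Among the HSC subsets, Gsr fell in MPP. The same probe read 12.24, 12.10 and 12.24 in ST-HSC, 11.68 and 12.57 in LT-HSC, and 10.74, 10.63 and 11.02 in MPP. No MPP array reached any ST-HSC or LT-HSC array. MPP was 2.63-fold lower than ST-HSC (log2 difference -1.39 ± 0.29 SE, limma adjusted p = 0.0239), with differences of -1.22 and -1.48 within the runs that held both. Against LT-HSC the difference was -1.32 ± 0.33 SE (limma adjusted p = 0.03). Without the dim LT-HSC array it was -0.88 with an adjusted p of 0.32, and without MPP replicate 2 or 3 the adjusted p was 0.0791 or 0.0961. It was 0.0894 with slide as a random block and 0.0867 on the arrays of the HSC sort alone. The call against ST-HSC was lost when any 1 of the 6 ST-HSC and MPP arrays but the unnumbered MPP array was left out, with differences from -1.44 to -1.31 and adjusted p-values from 0.0647 to 0.108. It was also lost under 75th percentile scaling (adjusted p = 0.0524) and on the arrays of the HSC sort alone (adjusted p = 0.0912).

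Markers of other cells also differed between these populations. The mean of 7 mature neutrophil markers was 12.34 to 13.15 in LT-HSC arrays and 11.71 to 13.11 in ST-HSC, against 10.04 to 12.02 in MPP, 10.10 to 11.82 in GMP, 10.77 to 11.68 in MEP and 9.70 to 10.85 in CMP. The ranges of GMP and MEP thus overlapped, and in ST-HSC, MPP, CMP and GMP all 7 were well above background on every array. The mean of the 6 GMP markers was 14.93 to 15.24 in GMP, 12.81 to 13.57 in ST-HSC, 12.56 to 13.42 in CMP, 10.64 to 12.45 in LT-HSC, 10.37 to 11.72 in MPP and 8.86 to 11.47 in MEP. Its genes did not share 1 order: Csf1r was at 11.62 in CMP and 9.41 in ST-HSC, and Elane at 11.08 and 12.58. A list of 7 marrow macrophage markers stood at 8.85 to 9.74 in ST-HSC, 7.43 to 7.54 in LT-HSC and 6.58 to 7.65 in MPP. The mean of 4 T cell markers was 7.69 to 7.82 in LT-HSC, 6.39 to 6.59 in ST-HSC, 5.39 to 5.72 in MPP and 4.05 to 4.91 in GMP. The 5 MEP markers were at 10.92 to 11.90, 9.46 to 10.03, 6.74 to 7.88 and 7.61 to 8.06 in the same order. The part of these cells in the Gsr differences was not tested.

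**Figure D3:**
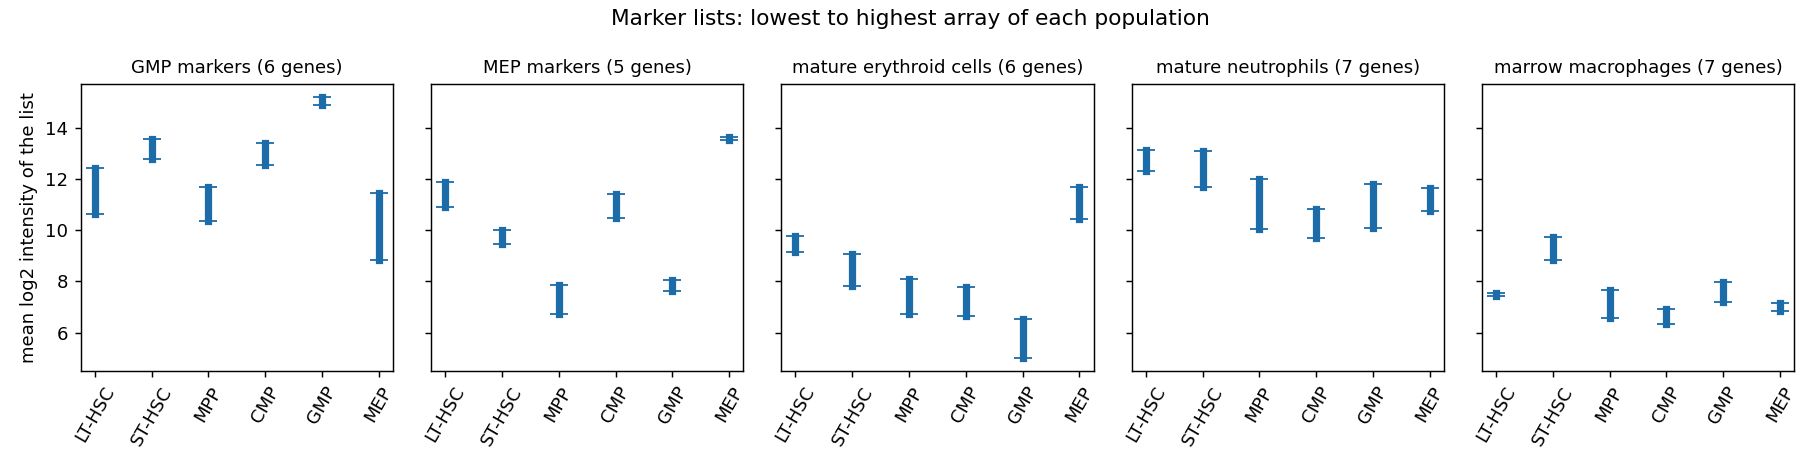
Mean log2 intensity of 5 marker lists, drawn for each population as a bar from its lowest to its highest array. Mature erythroid and MEP markers are highest in MEP, GMP markers in GMP, mature neutrophil markers in LT-HSC and ST-HSC, and marrow macrophage markers in ST-HSC.

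Peroxiredoxin 2 was highest in MEP and lowest in GMP among the myeloid populations, with CMP between them. The brightest Prdx2 probe, A_51_P147207 at chr8:87498063-87498122, is spotted 10 times on each array and read 15.73, 15.79 and 16.25 in MEP, 14.58, 14.47 and 14.53 in CMP, and 13.58, 13.96 and 13.85 in GMP. None of these groups overlapped. Prdx2 was 4.37-fold lower in GMP than in MEP (log2 difference -2.13 ± 0.16 SE, limma adjusted p = 9.08e-07), and the adjusted p stayed at or under 9.81e-06 when any 1 array was left out. It was 2.63-fold higher in MEP than in CMP (1.39 ± 0.16 SE, adjusted p = 4.46e-05). The step from CMP to GMP was smaller, at -0.73 ± 0.16 SE (adjusted p = 0.0196). That step lost its call under 75th percentile scaling (-0.60, adjusted p = 0.282), on the arrays of the myeloid sort alone (adjusted p = 0.0527) and when GMP replicate 1, CMP replicate 1, CMP replicate 2 or either unnumbered array was left out, with adjusted p-values from 0.052 to 0.0955. In the HSC subsets Prdx2 lay between 14.53 and 15.03 on all 8 arrays, and no difference among them was called.

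The mature erythroid list, which holds globins and red cell membrane genes, was at 10.43 to 11.72 in MEP, 6.66 to 7.77 in CMP and 5.02 to 6.53 in GMP. All 6 of its genes were well above background on every MEP array, against 5 in CMP and 2 in GMP, and Epb4.2 was above background on no CMP or GMP array. The part of more mature red cell precursors in the MEP values of Prdx2 and of the members below was not tested.

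The glutathione synthesis genes had their highest means in MEP, and most of their calls depended on the fit. Gclm read 9.82, 9.78 and 9.31 in MEP, 8.12, 7.96 and 7.24 in CMP and 7.62, 7.65 and 7.37 in GMP, with no overlap between MEP and the other populations. The differences were 1.87 ± 0.78 SE from CMP (limma adjusted p = 0.138) and -2.09 ± 0.78 SE for GMP against MEP (adjusted p = 0.0914). The LT-HSC arrays, at 6.40 and 2.19, add to the pooled error, and without either of them the adjusted p-values were 0.00565 and 0.00239 at the same differences. With the replicate block they were 3.77e-05 and 1.73e-05. Within the numbered run Gclm was 1.76 above CMP in MEP, and within the unnumbered run 2.08.

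The catalytic subunit had the same highest population. Gclc, read by A_51_P365019 at chr9:77641296-77641355, was at 11.51, 11.53 and 10.84 in MEP, 10.49, 10.23 and 9.31 in CMP and 10.49, 10.29 and 9.59 in GMP. The third value of each population is that of the unnumbered array, which was the lowest in all 3. Gclc was 2.43-fold higher in MEP than in CMP (log2 difference 1.28 ± 0.41 SE, limma adjusted p = 0.0477), a call that 12 of the 17 leave-one-out fits lost, with differences from 0.93 to 1.52 over all 17. With the replicate block the adjusted p was 8.03e-05. GMP against MEP gave -1.17 ± 0.41 SE (adjusted p = 0.0697, and 0.000108 with the block).

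The last enzyme of the path, Gss, read 10.57, 10.52 and 10.53 in MEP, 9.87, 9.79 and 9.58 in CMP and 9.59, 9.81 and 9.70 in GMP, so that MEP stood clear of both and CMP and GMP overlapped. The difference was 0.80 ± 0.29 SE for MEP against CMP (limma adjusted p = 0.0861, and 0.00105 with the replicate block) and -0.84 ± 0.29 SE for GMP against MEP (adjusted p = 0.0675, and 0.000725 with the block). CMP and GMP differed by -0.04 in Gss, with an interval of -0.67 to 0.59, by 0.11 in Gclc (-0.77 to 0.99) and by -0.22 in Gclm (-1.90 to 1.46).

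Among the HSC subsets the 3 synthesis genes gave no call with all 17 arrays and no block. Gclm read 5.77, 5.76 and 6.96 in ST-HSC and 4.67, 5.02 and 6.10 in MPP, where both unnumbered arrays were the highest of their group. The difference was -0.90 ± 0.78 SE (limma adjusted p = 0.988), and with the replicate block -0.90 ± 0.13 SE (adjusted p = 0.00861). Against LT-HSC its differences were 1.87 in ST-HSC (95% interval -0.01 to 3.75) and 0.97 in MPP (-0.91 to 2.85). Both turned without the dim LT-HSC array, to -0.24 (limma adjusted p = 0.994) and -1.13 (adjusted p = 0.441). Without the other LT-HSC array the fit gave 3.97 (adjusted p = 0.000724) and 3.07 (adjusted p = 0.00341), both called. These rest on the dim array alone, where Gclm was not above background, and take their spread from the other populations, so they are no measure of size. Against that array only a bound can be given: ST-HSC was at least 1.40-fold higher than its lowest signal above background, and for MPP there is no bound above that signal. Gclc gave -0.83 in MPP against LT-HSC, with an interval of -1.81 to 0.16 (limma adjusted p = 0.315), and -0.47 with scanning run as a block (adjusted p = 0.0389). Gss was at 8.35 and 8.07 in LT-HSC, 8.34, 8.47 and 9.51 in ST-HSC and 8.47, 8.79 and 9.47 in MPP, whose arrays all lay above those of LT-HSC (0.70, interval 0.00 to 1.40, limma adjusted p = 0.23).

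Of the superoxide dismutases, the mitochondrial one rose in MEP. Sod2 read 14.02, 14.16 and 14.47 in MEP against 13.46, 13.46 and 13.59 in CMP and 13.37, 13.49 and 13.67 in GMP, with no overlap. It was 1.64-fold higher in MEP than in CMP (log2 difference 0.71 ± 0.16 SE, limma adjusted p = 0.00724) and 1.63-fold lower in GMP than in MEP (-0.71 ± 0.16 SE, adjusted p = 0.00677), and both calls held in all 28 alternatives run. The HSC subsets lay between 13.38 and 13.87, below every MEP array, and no difference among them was called.

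The cytosolic dismutase varied more than Sod2 between the arrays of every population but LT-HSC. The brightest Sod1 probe, A_51_P367381 at chr16:90226497-90226556, had population means from 15.64 in GMP to 16.48 in MEP, and the unnumbered array was the highest of its population in all 5 outside LT-HSC, from 16.14 in GMP to 17.08 in MEP. Sod1 was called in none of the 6 comparisons in the model of population means. In GMP against MEP it was called under 75th percentile scaling (-1.08, limma adjusted p = 0.0245), with slide as a random block (-0.85, adjusted p = 0.0191) and as the mean of its probes (-0.71, adjusted p = 0.0236), and with scanning run as a block in all 3 myeloid comparisons. With the replicate block it was 0.46 ± 0.10 SE higher in MEP than in CMP (limma adjusted p = 0.00795), -0.84 ± 0.10 SE in GMP against MEP (adjusted p = 0.000369) and -0.38 ± 0.10 SE in GMP against CMP (adjusted p = 0.0461).

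Catalase had the narrowest range of population means among the brightest probes of the members. Cat read 9.79, 9.85 and 9.69 in MEP, 9.61, 9.55 and 9.48 in CMP and 9.53, 9.59 and 9.32 in GMP. The HSC subsets lay between 9.61 and 10.48, with the highest values on the numbered MPP arrays, at 10.48 and 10.44. No comparison of Cat passed the test, and the 6 intervals together ran from -0.74 to 0.83.

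Thioredoxin reductase 1 lay higher on every array of the HSC subsets than on any myeloid array. Txnrd1 read 12.75 and 12.75 in LT-HSC, 13.30, 13.02 and 12.73 in ST-HSC and 13.55, 13.22 and 12.93 in MPP, and it lay between 11.60 and 12.17 on all 9 myeloid arrays. Within a sort its differences were small, from -0.34 in MEP against CMP (limma adjusted p = 0.282) to 0.48 in MPP against LT-HSC (adjusted p = 0.197), and none was called. With scanning run as a block the difference of MPP from LT-HSC was 0.63 (adjusted p = 0.0253).

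Heme oxygenase 1 had its lowest mean in MEP and its highest in ST-HSC. Hmox1 read 8.85 and 10.62 in LT-HSC, 10.06, 9.62 and 9.97 in ST-HSC, 9.39, 8.88 and 9.15 in MPP, 7.92, 8.05 and 8.11 in CMP, 8.32, 8.27 and 8.25 in GMP and 7.55, 7.22 and 7.15 in MEP. Its MEP arrays lay below every other array, and its ST-HSC arrays above every MPP array. The differences were -0.72 ± 0.33 SE for MEP against CMP (limma adjusted p = 0.187), 0.97 ± 0.33 SE for GMP against MEP (adjusted p = 0.0618) and -0.75 ± 0.33 SE for MPP against ST-HSC (adjusted p = 0.529). The LT-HSC arrays differed by more than any other pair of a population, and without either of them the adjusted p-values were 0.0101, 0.00117 and 0.0393. Against LT-HSC, ST-HSC gave 0.15, which was 1.04 without the dim array (adjusted p = 0.0433) and -0.73 without the other (adjusted p = 0.0723). MPP gave -0.59, which was 0.29 (adjusted p = 0.757) and -1.48 (adjusted p = 0.00148) in the same order. In these fits the lone LT-HSC array is assumed to vary like the other populations. The replicate block gave 0.0024 and 0.000455 for the myeloid comparisons and 0.0116 for MPP against ST-HSC. The mean of the 7 macrophage markers, highest in ST-HSC as given above, was 6.35 to 6.92 in CMP, 7.18 to 7.98 in GMP and 6.83 to 7.17 in MEP. All 7 were above background on every array of ST-HSC, MPP and CMP, 6 in GMP and 4 in LT-HSC and MEP. They did not share 1 order: C1qa was at 8.77 in ST-HSC and 4.70 in LT-HSC, and Slc40a1 at 9.34 and 10.64, with 11.32 in MEP. Macrophages' part in the Hmox1 values was not tested.

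Between the HSC subsets and the myeloid populations, the contrast on which the group was chosen, 2 member probes lay higher without overlap in the HSC subsets and 2 lower, against 2.54% and 5.51% of all probes. Nothing is read from these counts. Gclm lay between 2.19 and 6.96 on the 8 arrays of HSC subsets and between 7.24 and 9.82 on the 9 myeloid arrays, a difference of -3.08 between the means of the 3 population means. This was -2.38 without the dim LT-HSC array and -1.44 within the unnumbered run, the only one with both sorts. Gss differed by -1.36 (8.07 to 9.51 against 9.58 to 10.57), and by -0.44 within that run. Txnrd1 differed by 1.06 and by 0.81 within the run, and Hmox1 by 1.71 and by 1.73 within the run. By their brightest probes the remaining members differed less over all arrays, with Gclc at -0.45, Cat at 0.42, Gsr at 0.29, Sod2 at -0.16, Prdx2 at -0.05 and Sod1 at 0.02, beside a median of -0.02 over all probes. Within the unnumbered run they were at -0.81, 0.24, -0.11, -0.25, -0.24 and -0.12 in the same order, so that Gclc was as large as Txnrd1 and the signs of Gsr and Sod1 turned. All values within that run leave out LT-HSC, which has no array there, so they also differ in the populations covered. The other Prdx2 probes gave -0.44 and -0.50 over all arrays. Apart from that single run, sort and scanning run cannot be told apart here.

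The probes of Gsr and of Prdx2 gave the same highest and lowest population, GMP and CMP for Gsr and MEP and GMP for Prdx2, while populations between them changed places. The 3 Gsr probes gave 2.33, 2.39 and 2.36 for GMP against CMP and -1.39, -1.37 and -1.25 for MPP against ST-HSC, and the 3 at chr8 positions 34808399, 34808378 and 34807813 include a pair that overlap in the genome. The 3 Prdx2 probes gave -2.13, -1.99 and -1.87 for GMP against MEP. They parted in CMP. By the brightest probe CMP was at 14.53, against 14.54 to 14.81 over the HSC subsets, while by A_52_P893440 (chr8:87494387-87494446) it was at 11.91 against 11.47 to 11.67, and by A_52_P550034 at 11.84 against 11.36 to 11.54. The Sod1 probes A_52_P3581 and A_51_P425205 are listed under a separate cDNA record and lie at chr16:90224181-90224240 and chr16:90223273-90223332, before the brightest probe. They read 7.64 to 8.13 and 3.82 to 5.83 over the population means, and in GMP against MEP they gave -0.39 (limma adjusted p = 0.332, and 0.0313 with the replicate block) and -0.89 (adjusted p = 0.19, and 0.00939 with the block).

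**Figure D4:**
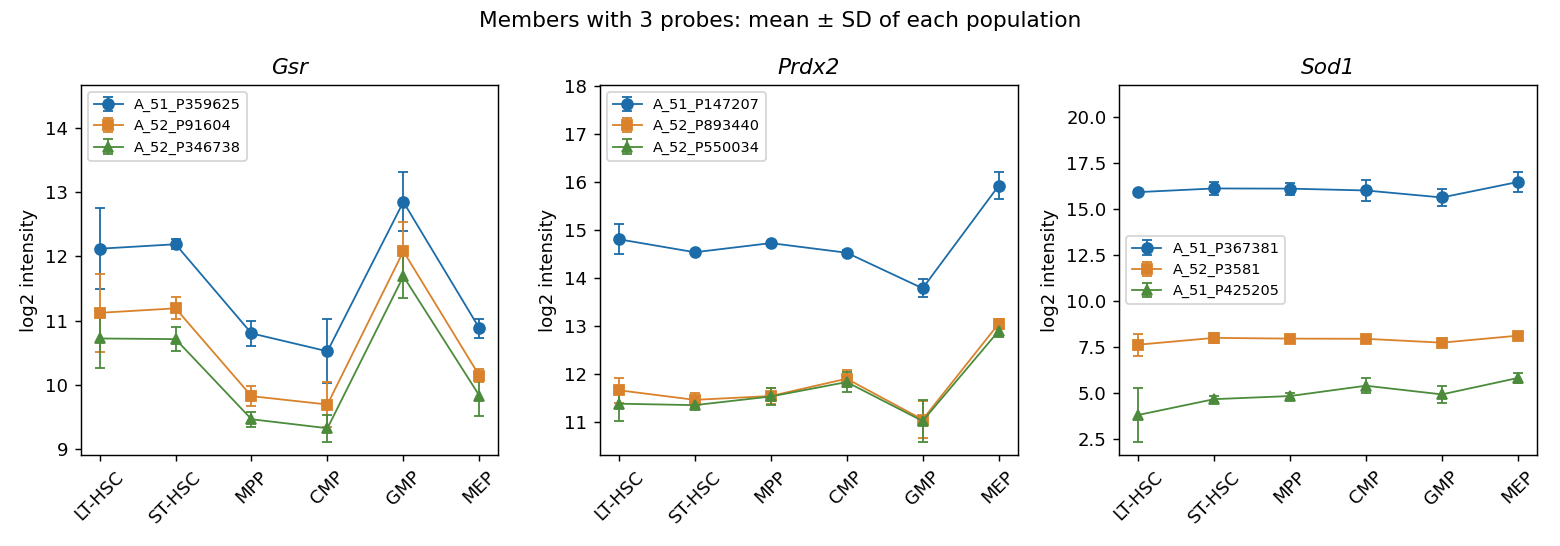
Mean ± SD of each population (x axis) in log2 intensity (y axis) for the 3 probes each of Gsr, Prdx2 and Sod1, over 2 LT-HSC arrays and 3 arrays of every other population. The Gsr lines run in parallel with a peak in GMP, the Prdx2 lines peak in MEP and dip in GMP, and the Sod1 lines span 0.84 for the brightest probe, 0.49 for A_52_P3581 and 2.02 for the dimmest (1.16 without the dim LT-HSC array).

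Over the 17 arrays, which share populations, slides and scanning runs, the closest members were Gclm and Gss, with a Pearson r of 0.91 (Spearman rho 0.94). Gclm and Gclc had an r of 0.44 over all arrays and 0.92 over the 9 myeloid arrays. Sod2 and Prdx2 had an r of 0.83 with a rho of 0.47, and Txnrd1 and Hmox1 an r of 0.79. The most opposed pair was Gclm and Hmox1, at -0.88. Among 10528 gene names well above background on every array of at least 3 populations, the brightest probes most like Gclm were those of Rabif (r = 0.976), Lhfpl2 (0.97) and Pigg (0.967). Those most like Prdx2 were Bdh1 (0.969), Gnb1l (0.968) and Trim2 (0.964), and those most like Cat were Arnt (0.934), Tloc1 (0.918) and Znrf3 (0.914). These are descriptions over 17 arrays of 6 populations. They include the dim LT-HSC array, on which Gclm was not above background, and they span the contrast on which the group was chosen.

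The antioxidant response element was searched as TGACNNNGC on both strands in the RefSeq promoter windows of GRCm38.p6, which hold 250 bases before and 50 after a start. Windows were found for 7 of the 10 members, all but Gclc, Gsr and Hmox1. The letters occurred in 3 of their 9 windows, against 12.4% of 32851 windows of all genes. For the further pathway genes read below it was 16 of 76 windows (21.1%). The matches are shown in capitals, on the reverse strand in each case, with 26 bases on either side, and lie 134 bases before the start of Gclm (chr3:122245397-122245457), 92 before 1 of 3 starts of Txnrd1 (chr10:82859088-82859148) and 56 before that of Sod1 (chr16:90220680-90220740). Of these genes Gclm had its highest mean in MEP, Txnrd1 in MPP and Sod1 by its brightest probe also in MEP. A match of these letters is a description and shows no binding.
Gclm: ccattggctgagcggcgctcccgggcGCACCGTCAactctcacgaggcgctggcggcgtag
Txnrd1: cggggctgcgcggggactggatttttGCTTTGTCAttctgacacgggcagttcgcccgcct
Sod1: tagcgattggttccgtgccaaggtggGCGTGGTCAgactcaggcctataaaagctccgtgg

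The wider pathway was read through 61 further genes in 7 lists, of which 60 were on the array, each by its brightest probe. Of these, 0 were higher and 1 lower in ST-HSC against LT-HSC, where 0.862% and 2.93% of the brightest probes of all gene names were called (limma, adjusted p under 0.05). In MPP against ST-HSC 1 was higher and 1 lower (1.37% and 1.09% of all), and in MPP against LT-HSC 0 were higher and 6 lower (2.95% and 4.92%). Without the dim LT-HSC array 4 of these 6 were still called and 2 other genes were added, while Slc3a2 (adjusted p = 0.0348, then 0.101) and Txnrd2 (0.0429, then 0.175) lost their call. In GMP against CMP 7 were higher and 8 lower (2.06% and 3.43%), in MEP against CMP 15 and 13 (7.45% and 10.4%), and in GMP against MEP 17 and 18 (10.3% and 8.26%). The median log2 difference over the 60 genes was 0.03, -0.05 and -0.11 in these 3 comparisons, beside 0.04, 0.10 and -0.07 over all gene names.

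The glutathione transferases, which couple glutathione to other molecules, changed in both directions. Of 13 genes, 6 were higher and 4 lower in GMP than in MEP, with a median of 0.38, against 10.3% and 8.26% of all gene names. Gstm1 was at 16.45 in GMP and 12.03 in MEP (log2 difference 4.42 ± 0.47 SE, limma adjusted p = 1.44e-05), and the microsomal Mgst1 at 11.29 and 7.35 (3.95 ± 0.43 SE, adjusted p = 1.8e-05). Gstm5 and Mgst3 were among those lower in GMP, at -3.62 and -1.99. The Gstm genes are close paralogs, whose probes may share signal.

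Of 8 genes listed for the supply of NADPH, which both reductases use, 5 were higher and 3 not called in GMP against MEP. Against CMP 3 were higher and 5 not called. Of all gene names, 10.3% and 2.06% were higher in these comparisons. The list's median was 1.15 and 0.62. In MEP against CMP 0 were higher and 3 lower, against 7.45% and 10.4% of all gene names. Pgd, of the pentose phosphate pathway, was at 13.73 in GMP against 12.02 in MEP (1.71 ± 0.25 SE, limma adjusted p = 0.000206), and the isocitrate dehydrogenase Idh1 at 8.02 against 4.86, where 1 of 3 MEP arrays was above background (3.16 ± 0.36 SE, adjusted p = 2.53e-05). G6pdx, Idh2 and Nnt were the others called against MEP, at 0.84, 1.53 and 1.45.

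The thioredoxin, peroxiredoxin and glutaredoxin list had calls in both directions. Of 15 genes, 6 were higher and 1 lower in MEP than in CMP, with a median of 0.47, against 7.45% and 10.4% of all gene names. In GMP against MEP 2 were higher and 7 lower, against 10.3% and 8.26%. Glrx5, a mitochondrial glutaredoxin needed for iron-sulfur clusters and heme synthesis, was at 14.67 in MEP and 12.74 in GMP (log2 difference of GMP from MEP -1.94 ± 0.30 SE, limma adjusted p = 0.00039). Prdx5 ran the other way, at 12.82 in GMP and 11.10 in MEP (1.72 ± 0.38 SE, adjusted p = 0.00494). The mitochondrial Prdx3 was 1.41 higher in MEP than in CMP, beside Sod2.

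The heme and iron disposal list changed in both directions. Of 6 genes, 3 were higher and 1 lower in MEP than in CMP, against 7.45% and 10.4% of all gene names. In GMP against MEP 1 was higher and 4 lower, against 10.3% and 8.26%. Blvrb, the flavin and biliverdin reductase abundant in red cells, was at 13.60 in MEP, 10.65 in CMP and 8.46 in GMP (GMP against MEP -5.14 ± 0.32 SE, limma adjusted p = 2.01e-07). The quinone reductase Nqo1 was at 9.43 in MEP and 5.30 in GMP (-4.12 ± 0.31 SE, adjusted p = 7.36e-07). Blvrb was also the only one of the 60 genes called between ST-HSC and LT-HSC, at -1.86, and without the dim LT-HSC array it was -2.30. Erythroid markers differed between the same populations. The MEP marker list was at 10.92 to 11.90 in LT-HSC, 9.46 to 10.03 in ST-HSC and 6.74 to 7.88 in MPP. The mature erythroid list was at 9.14 to 9.77, 7.82 to 9.08 and 6.71 to 8.08 in the same order. The part of erythroid cells in the Blvrb difference was not tested.

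Of the other glutathione genes, 9 of 10 were on the array. Of these, 3 were higher and 1 lower in GMP than in MEP, against 10.3% and 8.26% of all gene names. The secreted peroxidase Gpx3 was at 8.51 in GMP and 4.40 in MEP, where 2 of 3 arrays were above background (4.11 ± 0.87 SE, limma adjusted p = 0.00415). For the cystine transporter Slc7a11, 2 of 3 GMP arrays and no MEP array gave signal above background, so that its difference is a bound of at least 1.20-fold (adjusted p = 0.0107). Of the 2 further genes of superoxide dismutation, Sod3 and the Sod1 chaperone Ccs, neither was called in any comparison.

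The mRNA of Nrf2, encoded by Nfe2l2, rose to 12.43 in MEP from 11.43 in CMP and differed by -0.88 in GMP against MEP, both called (limma adjusted p = 0.0185 and 0.0327). Its mean in LT-HSC was 12.37, close to that of MEP. The Nrf2 inhibitor Keap1 was not called in any comparison. Of the 7 genes of this list, 1 was higher and 2 lower in MEP than in CMP, against 7.45% and 10.4% of all gene names. In GMP against CMP 0 were higher and 2 lower, against 2.06% and 3.43%. Bach2, a repressor that competes for the same element, was at 5.96 in GMP against 8.67 in CMP (-2.71 ± 0.19 SE, limma adjusted p = 1.02e-05). The small Maf protein Maff was at 8.50 against 10.66 (-2.16 ± 0.38 SE, adjusted p = 0.00492).

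**Figure D5:**
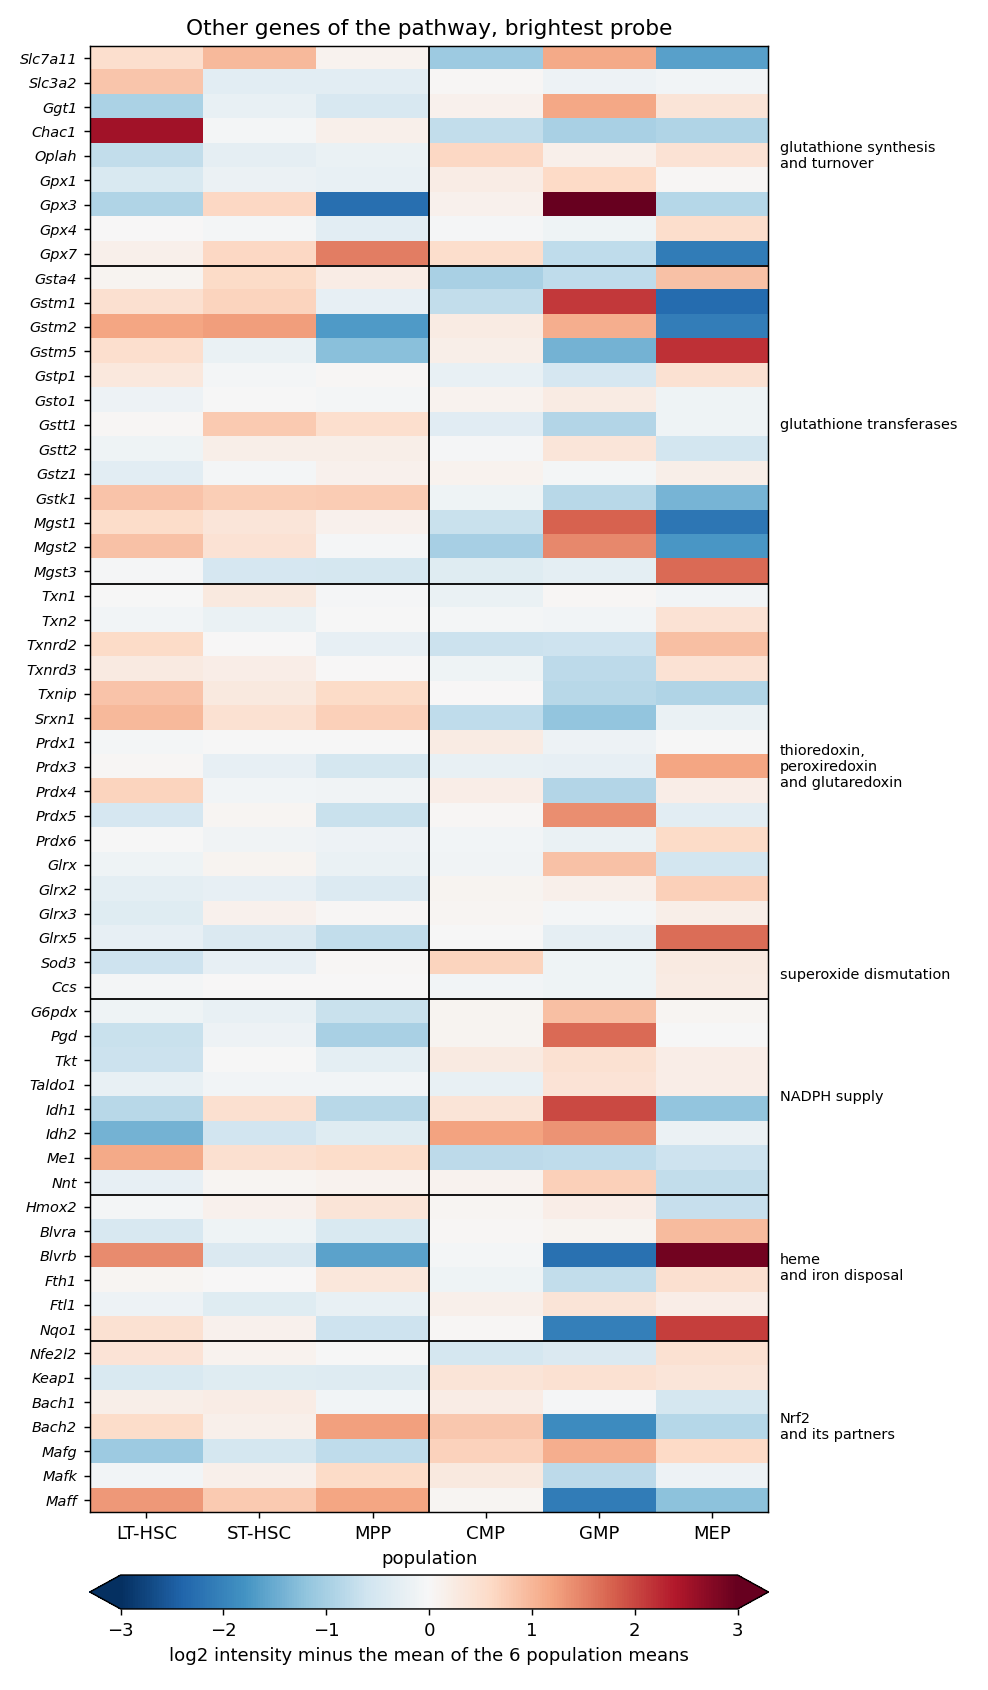
Population means of the brightest probe of 60 further genes in 7 lists (rows) over the 6 populations (columns), as log2 intensity minus the mean of the 6 population means, with colours ending at 3 either way. Gstm1, Mgst1, Gpx3, Pgd and Idh1 are highest in GMP, and Blvrb, Nqo1, Glrx5 and Mgst3 in MEP.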

How the data were processed

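Total RNA of 17 samples was labelled with Cy3 and hybridized to single-color Agilent whole mouse genome arrays. The authors deposited the scanner output, where spot intensity had been adjusted for background by Agilent Feature Extraction (9.5.3.1 for the 6 numbered myeloid arrays and 10.2.1.3 for the others, per the file headers) and not yet normalized between arrays. A quantile normalized table of log2 values that the authors deposited served as an alternative. Its rows followed the order of the spots, with a Spearman correlation of at least 0.994 with the mean signal of the same array.

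Log2 of the processed signal was quantile normalized over all 45018 spots with limma (3.58.1, R 4.3.3). Controls (1639) and flagged outliers were dropped, which left 161 probe values missing, and repeated spots of a probe were averaged. A probe with several spots counted as above background where at least as many of them were as were not. The model (lmFit, eBayes) had 1 mean per population and Benjamini-Hochberg adjustment at 0.05, and the scripts were tested on simulated data. The number of arrays limits the precision. Where 1 of 2 groups had no array with signal, only a bound is given, from the lowest signal above background.

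Groups and replicate numbers came from the labels. Over 9 same-numbered pairs of myeloid arrays, deviations from the population means correlated at 0.13 to 0.51, against -0.39 to 0.17 for 18 other pairs. The negative pairs all cross scanning runs, so this contrast also follows the run. Within the numbered run, same-numbered pairs were at 0.13 to 0.34 and other pairs at 0.09 to 0.17. Arrays numbered 1 or 2 shared a slide, and the number was taken as pairing there. It was taken so for MPP and ST-HSC too (0.29, 0.52 and 0.67), although ST-HSC 2 and MPP 3 were at 0.33. It was not taken so for LT-HSC, whose pairs were at -0.06 and 0.11. The unnumbered arrays of a sort counted as 1 number.

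The members, lists and tests were chosen with earlier results of these data known. All member probes are reported. For Gclm, Prdx2 and Cat the 3 gene names with the highest Pearson r are named, and for each further list the 2 called genes with the largest difference. Others were named after their values were seen. Elane was found as Ela2, and neither Ggct nor Tcrb-V13, a gene of the T cell list, was matched. A gene of the mature erythroid list is not reported here and was left out of its means. Array means of the B cell list were 5.86 to 7.81 and of the T cell list 4.05 to 7.82. Alternatives were 75th percentile scaling, normexp background correction (offset 50), the deposited table, a filter on dim probes (24658 kept), a block of scanning run, scan day, slide or replicate number, the arrays of 1 sort, 1 probe or the mean of all probes per gene, and each array left out. Scan day (4 days) was added after seeing the data.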

Additional observations from a re-analysis of the deposited data

How the results depend on the processing

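Of 280 refits of the 10 called differences of members by brightest probe, 249 kept their direction and call, and the others kept their direction. Among all 1680 refits of called and uncalled differences 45 changed sign, none of them from a called difference. Of these, 1 was called after the change: Hmox1 in ST-HSC against LT-HSC was 0.15 and became -0.68 (limma adjusted p = 0.0293) with the replicate block, which there compares the dim LT-HSC array alone. The number of member probes called changed by over 1.5 times as follows. Under 75th percentile scaling it was 3 in GMP against CMP and 11 in GMP against MEP. With scanning run as a block it was 5 in MPP against LT-HSC, and with slide as a random block 0. With the replicate block, pairing same-numbered arrays, it was 7 in ST-HSC against LT-HSC, 5 in MPP against ST-HSC, 10 in MPP against LT-HSC, 9 in MEP against CMP and 14 in GMP against MEP. On the arrays of 1 sort it was 0 in MPP against ST-HSC, 0 in MPP against LT-HSC, 3 in GMP against CMP and 8 in MEP against CMP. With 10 probes tested, 1 per gene name, it was 1, 1, 2, 3 and 3 in MPP against ST-HSC, MPP against LT-HSC, GMP against CMP, MEP against CMP and GMP against MEP, and averaging a gene's probes gave 1, 1, 2, 3 and 4. With 1 array left out it ranged from 0 to 2 in ST-HSC against LT-HSC, 1 to 4 in MPP against ST-HSC, 0 to 6 in MPP against LT-HSC, 3 to 6 in GMP against CMP, 4 to 6 in MEP against CMP and 7 to 10 in GMP against MEP. The extremes against LT-HSC came without an LT-HSC array (replicate 2-3: 2 calls in ST-HSC and 6 in MPP, unnumbered: 1 and 0). The fewest in MPP against ST-HSC came without MPP replicate 2 or 3 (1 call, and 1 call each against LT-HSC), and those of GMP against CMP without GMP replicate 1, CMP replicate 1 or CMP replicate 2 (3 calls). The cause was not tested.

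Over all probes, the number called ranged from 260 to 11601 around 1375 in ST-HSC against LT-HSC, 279 to 2212 around 833 in MPP against ST-HSC, 698 to 13302 around 2988 in MPP against LT-HSC, 1120 to 4681 around 1962 in GMP against CMP, 5143 to 13669 around 6863 in MEP against CMP and 5913 to 12653 around 7152 in GMP against MEP, in each case highest with the replicate block. Scaling to the 75th percentile moved the median of all probes to -0.27 in MPP against LT-HSC, 0.49 in MEP against CMP and -0.43 in GMP against MEP, and turned 1208 higher and 1780 lower calls in MPP against LT-HSC into 841 and 6298. Signal over background limited Gclm and 1 Sod1 probe in LT-HSC.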
